A study of Mus musculus with 17 samples.

Results

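Neurotrophins are secreted growth factors that bind Trk receptor tyrosine kinases and the p75 receptor. The genes described here are Bdnf and Ntf3, which encode the ligands BDNF and neurotrophin-3, Ntrk2 and Ntrk3, which encode the receptors TrkB and TrkC, and Ngfr, which encodes p75. They were chosen by symbol, and these 5 genes were found among the 36293 genes of the bulk files and the 37608 genes of the single-nucleus tables. The study asked how chronic unpredictable stress (CUS), a mouse model of depression, alters transcription in the cortex. Adult male mice, C57BL/6 by the labels and C57BL/6J by the methods, were given 3 stressors a day for 12 days from 9 to 10 weeks of age. Control mice had daily handling and no stressors, and their cages stood apart from those of CUS mice. The bulk mice also went through behavioral tests and were taken 24 h after the last test, whereas the neocortex for nuclei was taken 24 h after the last stressor. Nuclear RNA of the medial prefrontal cortex (mPFC) was sequenced in bulk in 4 control and 5 CUS mice at postnatal day 90. Nuclei of the neocortex were profiled with sNucDrop-seq, a droplet method, in 4 control and 4 CUS mice at postnatal day 80. Each library came from 1 mouse.

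In the adult cortex, BDNF is made mostly by excitatory neurons in response to activity, is released at synapses and acts on TrkB, which both neurons and astrocytes carry. Astrocytes make mainly a truncated form of TrkB without the kinase domain. Neurotrophin-3 is the preferred ligand of TrkC, and p75 binds every neurotrophin and its uncleaved precursor. BDNF is among the most studied molecules in rodent models of stress and of antidepressant action. Gene counts do not tell the truncated from the full-length receptors.

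Bulk libraries held 26188825 to 30525015 reads on genes per mouse. Of 40000 nuclear barcodes, 26698 nuclei were kept, 1935 to 4235 per mouse, with a median of 2010 UMIs (unique molecular identifiers, each standing for 1 captured RNA molecule). Among the kept nuclei, 20 barcodes occurred in at least 2 libraries. Clustering gave 26 classes with over 200 nuclei, of which 15 carried the name of a cell type by its markers and 11 are called by their leading genes. The members were kept out of the genes used to cluster. Markers of excitatory and of inhibitory neurons were read in every bulk library. In the nuclei, CUS mouse 2 stood apart: without it, genes called over all nuclei went from 1 to 828 and over all classes from 122 to 1409. The study ran the nuclei in 2 batches, and since no label assigns a mouse to a batch, batch was not modelled.

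By the bulk annotation (mm10), Bdnf spans chr2:109674700-109727007 on the plus strand, and the GENCODE gene annotation gives it 11 transcripts. Ntf3 lies at chr6:126101412-126166910 on the minus strand. Ntrk2 takes 327 kb at chr13:58806569-59133970 on the plus strand, and Ntrk3 takes 562 kb at chr7:78175959-78738012 on the minus strand. Ngfr is a short gene at chr11:95568818-95587735 on the minus strand. Bdnf is known for several alternative promoters and for its induction by the factor CREB, which binds the cyclic AMP response element (CRE) TGACGTCA or its shorter core, TGACG or, on the other strand, CGTCA. RefSeq (GRCm38.p6) windows of the 250 bases before a transcription start were read for 7 starts of Bdnf, 2 of Ntf3 and 1 each of Ntrk2 and Ngfr. Of these windows, 1 held the core, against 17.8% of all 32851 windows of this length, and none held the full CRE, against 1.55% of all. The window with the core belongs to start 3 of Bdnf (chr2:109692186-109692435, plus strand) and is shown first, with the core in capitals, beginning 35 bases before the start. The window of Ntrk2 (chr13:58806319-58806568, plus strand), the member with the most UMIs, follows for comparison, with no capitals because neither motif is in it.
Bdnf, start 3: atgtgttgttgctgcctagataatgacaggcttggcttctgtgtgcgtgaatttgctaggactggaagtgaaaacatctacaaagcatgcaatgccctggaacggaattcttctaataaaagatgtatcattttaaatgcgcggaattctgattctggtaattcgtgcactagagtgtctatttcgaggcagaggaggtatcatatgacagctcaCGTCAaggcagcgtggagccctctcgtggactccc
Ntrk2: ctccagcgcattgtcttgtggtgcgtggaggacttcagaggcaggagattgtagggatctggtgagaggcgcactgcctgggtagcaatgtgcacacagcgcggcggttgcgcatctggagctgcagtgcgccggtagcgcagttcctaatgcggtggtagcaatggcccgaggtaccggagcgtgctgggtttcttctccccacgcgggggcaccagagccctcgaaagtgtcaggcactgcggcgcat
A match of letters is a description of the sequence. No measurement of these data was made on the windows.

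In the neocortical nuclei most UMIs of the ligands came from excitatory neurons. Bdnf gave 4522 UMIs over the 8 mice, of which 90.7% came from excitatory neurons and 1.77% from interneurons, classes that held 72.4% and 9.48% of all UMIs. Levels by class are given as CPM, the UMIs of the gene per 1000000 UMIs of the class, and every order of levels covers the 26 classes with over 200 nuclei. Among smaller classes, Endothelial-like nuclei had a higher mean of Bdnf than any of these, 311 ± 499, but from 5 UMIs. Claustrum-like nuclei had the highest Bdnf level, 299 ± 65.5 CPM (mean ± SD, n = 8 mice), with 213 in the lowest and 400.1 in the highest mouse. This range did not overlap that of the next class, cluster Galnt14/Sulf1, an excitatory cluster with 145 ± 31.6. Cluster Nefm/Nefl, 3rd in the order, had 125 ± 86.2 from 34 UMIs. Its range of 0 to 294 overlapped that of Claustrum-like nuclei. Among the named layers of excitatory neurons, Ex_L2/3_Enpp2-like nuclei had 117 ± 27.3, Ex_L5/6-like nuclei 75.5 ± 24.6, Ex_L4-like nuclei 68.5 ± 11.4, Ex_L5-like nuclei 55.3 ± 9.81 and Ex_L6-like nuclei 25.4 ± 6.92. The ranges of the upper-layer and the layer 6 nuclei were apart, 73.4 to 155 against 12.7 to 32.5, while those of each next class in the whole order overlapped at 24 of 25 steps. Interneurons lay at the low end, from 19.8 ± 8.63 in Inh_Ndnf-like nuclei to 7.90 ± 11.4 in Inh_Vip-like nuclei, the latter from 3 UMIs. Striatal-like nuclei, which came with the cortical tissue, had 13.8 ± 6.01.

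Glial nuclei held some Bdnf UMIs, 29.2 ± 14.1 CPM in Astrocyte-like nuclei and 55.0 ± 46.4 in Microglia-like nuclei, the latter from 31 UMIs. The same nuclei also held UMIs of the excitatory neuron markers Slc17a7, Neurod6, Neurod2 and Camk2a. Summed over these 4 markers they came to 224 CPM in Astrocyte-like and 755 in Microglia-like nuclei, against 1111 in excitatory nuclei. The same sum was 279 CPM in interneurons and 440 in Striatal-like nuclei. The part of free RNA of excitatory neurons in the glial, interneuron and striatal values was not tested. Over the 26 classes, the genes whose level moved most like that of Bdnf were Lingo1 (Pearson r = 0.88 of log2 mean levels), C1ql3 (0.87) and Slc39a10 (0.86). These points share their 8 libraries and their depth.

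Ntf3 was much scarcer, with 267 UMIs in all, 86.9% of them in excitatory neurons. The unnamed excitatory cluster Ndst4/Abi3bp held 109 of these UMIs and had the highest level, 23.0 ± 2.14 CPM, with every mouse between 19.4 and 25.9. Cluster Prox1/Glis3, with 138 nuclei too small for the order, had 33.0 ± 39.8 from 8 UMIs. Also too small were cluster Fyb2/Zfp804b, with 24.4 ± 69.0 from 1 UMI, and cluster Slc47a1/Bnc2, with 21.1 ± 44.4 from 3 UMIs. The latter was not an excitatory cluster. In Ex_L2/3_Enpp2-like nuclei the level was 6.58 ± 3.21 from 66 UMIs, and the highest of these mice, at 12.9, lay below the lowest mouse of cluster Ndst4/Abi3bp. Cluster Angpt1/Atp10a stood second in the order at 11.8 ± 16.5, but from 9 UMIs, and its range of 0 to 42.3 overlapped that of the first. Cluster Cpne7/B130024G19Rik had 5.45 ± 3.26 and Inh_Pv-like nuclei 3.92 ± 4.73. No Ntf3 UMI was counted in Ex_L5-like nuclei, which allows a level of up to 0.931 CPM by counting error alone. The levels most like that of Ntf3 were those of B230216N24Rik (r = 0.73), Gm44724 (0.71) and Rfx3 (0.69). Gm44724 had at most 13.4 CPM in any class.

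**Figure D1:**
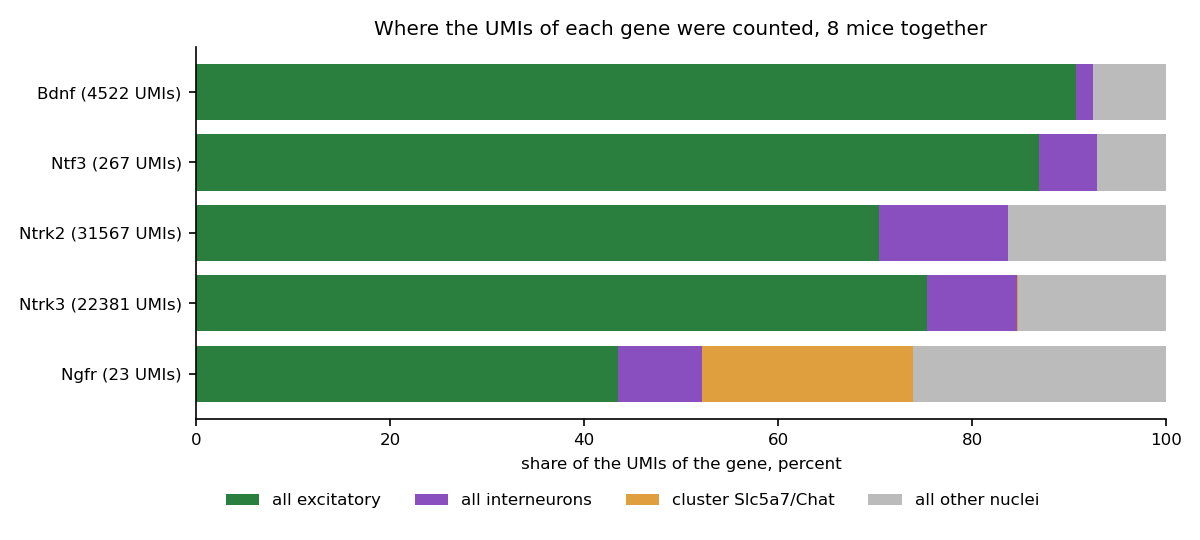
Share of the UMIs of Bdnf, Ntf3, Ntrk2, Ntrk3 and Ngfr, in percent (x axis), counted in excitatory neurons, interneurons, cluster Slc5a7/Chat and all other nuclei, with the 8 mice summed. Bdnf and Ntf3 were counted mostly in excitatory neurons (90.7% and 86.9%), and 21.7% of the few Ngfr UMIs in 1 small cluster.

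The receptors were spread more evenly. Ntrk2, with 31567 UMIs, was read in all 26 classes and differed 4.45-fold between the highest and the lowest. Inh_Vip-like nuclei (864 ± 159.6 CPM), Astrocyte-like nuclei (781 ± 115) and Inh_Ndnf-like nuclei (753 ± 61.7) led the order, followed by Inh_Pv-like (630.0 ± 53.6) and Inh_Sst-like nuclei (578 ± 75.3). Interneurons together had 657 ± 36.4 and excitatory neurons 459 ± 32.8 CPM, and the lowest mouse of the first (581) lay above the highest of the second (503). Oligo_Opalin-like nuclei were last with 194 ± 69.8. No step between neighbours in this order was larger than the spread over mice, and the leading class was not stable: it was Inh_Ndnf-like at a finer clustering (969.8) and Astrocyte-like where 1000 genes per nucleus were required (846). Zfp629 (r = 0.80), Myl1 (0.68) and Sema6c (0.67) had the levels most like that of Ntrk2. All were far scarcer than Ntrk2, with at most 20.8, 46.6 and 21.7 CPM in any class.

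Ntrk3, with 22381 UMIs, had a wider range, 13.9-fold from the highest to the lowest class. Cluster Tshz2/Slc17a6 (535 ± 151 CPM), Inh_Pv-like nuclei (524 ± 88.0) and Ex_L2/3_Enpp2-like nuclei (519 ± 42.3) led, and which of them came first changed with the settings. Outside the order, the 138 nuclei of cluster Prox1/Glis3, an excitatory cluster, had a higher mean than these, 598 ± 171 CPM from 191 UMIs, with a range of 302 to 867 that overlapped theirs. Within the excitatory layers, Ex_L5-like (433 ± 35.7) and Ex_L6-like nuclei (382 ± 39.9) followed, while Ex_L5/6-like (165 ± 29.6) and Ex_L4-like nuclei (157 ± 12.2) were far lower. The highest Ex_L4-like mouse had 182 and the lowest Ex_L2/3_Enpp2-like mouse 464. Among interneurons, Inh_Pv-like nuclei lay above Inh_Sst-like nuclei (149.9 ± 38.2) without overlap, at 399 to 641 against 117 to 214. Astrocyte-like nuclei had 105 ± 18.2, and cluster Tshz2/Vwc2l, an excitatory cluster, was last with 38.6 ± 18.5. Ntrk2 had its higher mean in Ex_L4-like nuclei instead, 543 ± 54.4 against 451 ± 40.4 in Ex_L2/3_Enpp2-like nuclei, with overlapping ranges. Over the 26 classes the levels of both receptors had r = -0.01, a description over points that share their libraries. Lyst (r = 0.76), Gm9885 (0.75) and Spef1 (0.72) were most like Ntrk3, and Gm9885 lies within Ntrk3 on the other strand. Gm9885 and Spef1 were scarce, with at most 13.2 and 10.2 CPM in any class. Over all pairs of members r lay between -0.45 and 0.31.

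**Figure D2:**
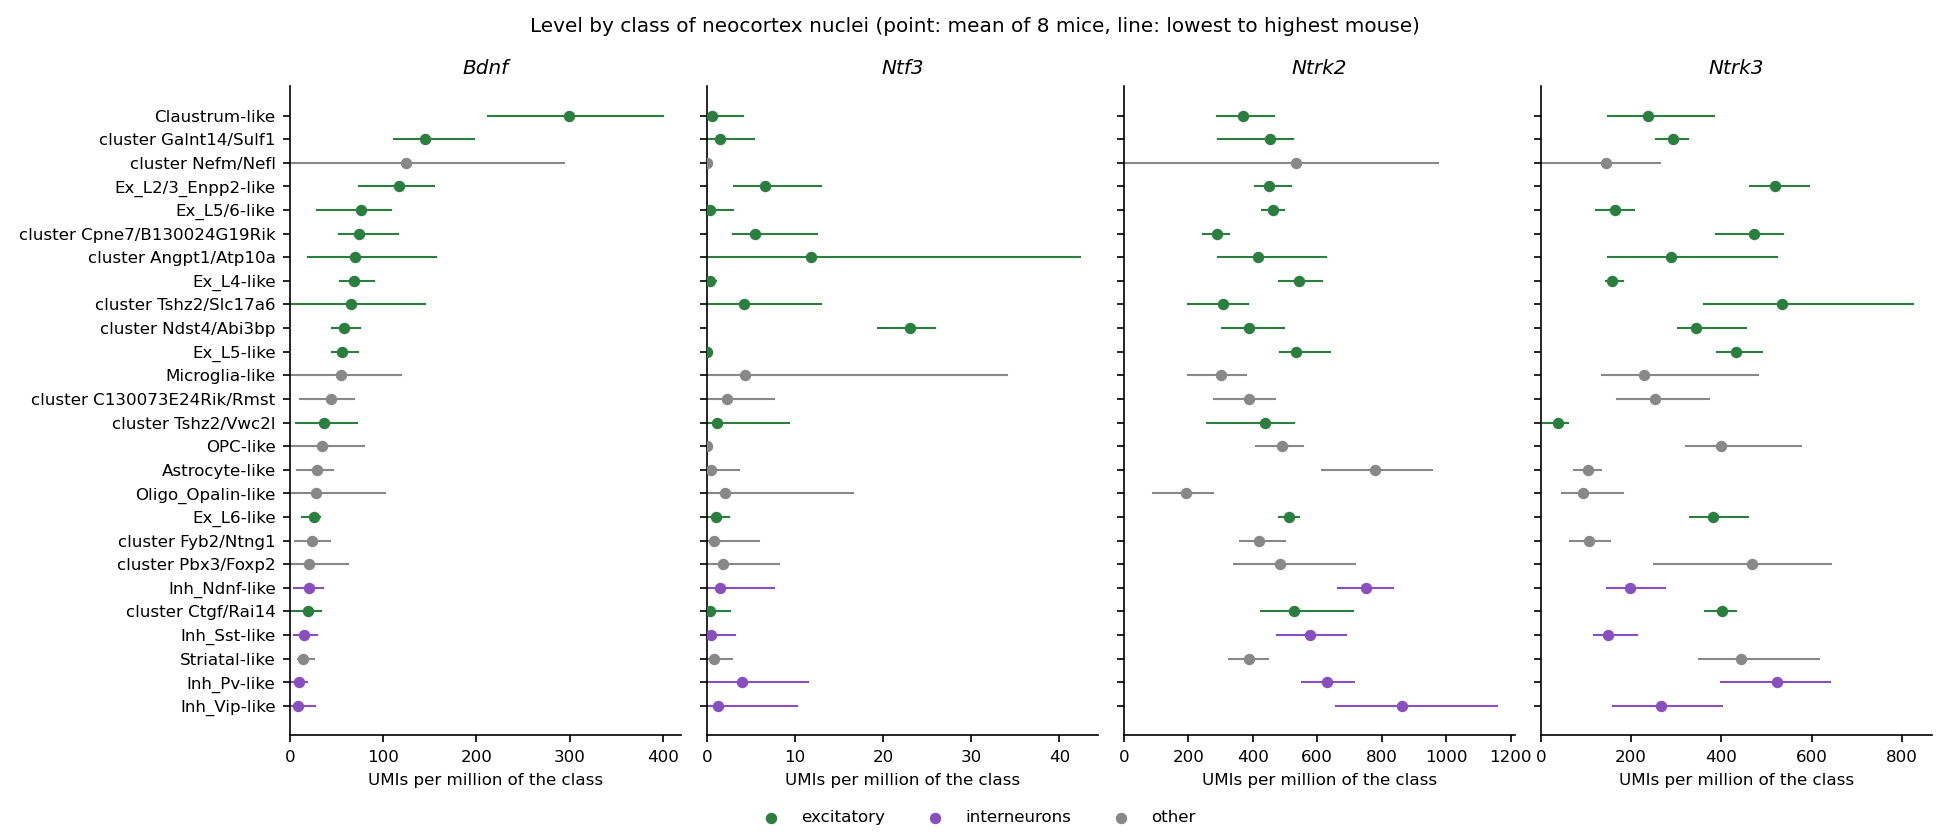
Level of Bdnf, Ntf3, Ntrk2 and Ntrk3 (x axes, CPM of the class total) in the 26 classes of neocortical nuclei, with points for the mean of 8 mice and lines from the lowest to the highest mouse, colored by excitatory neurons, interneurons and other classes. Bdnf peaks in Claustrum-like nuclei (299), Ntf3 in cluster Ndst4/Abi3bp (23.0), Ntrk2 in interneurons and astrocytes, and Ntrk3 is lower in Ex_L4-like (157) than in Ex_L2/3_Enpp2-like nuclei (519).

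Ngfr was close to absent from these cortical nuclei, with 23 UMIs over 8 mice. Of these, 5 came from cluster Slc5a7/Chat, 29 nuclei led by genes of acetylcholine synthesis and transport, which amounts to 51.9 CPM there against 0.34 over all nuclei. Cholinergic neurons of the basal forebrain are known to carry p75. With at most 2 UMIs in any class over 200 nuclei other than Striatal-like nuclei, which had 3, the order of Ngfr levels is not interpretable, and the genes most like it (Get4, Larp6 and Gm5535, r = 0.64 to 0.63) rest on these few UMIs. The ligand gene Ntf5, which is not among the 5 genes, gave 18 UMIs, 17 of them in excitatory neurons.

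The bulk comparison asked whether 12 days of CUS altered these genes in the mPFC. Of the 4 members with enough reads to be tested, Ntrk3 rose in CUS mice, and Bdnf, Ntf3 and Ntrk2 did not pass the test. Values are CPM of reads on the TMM-scaled library, tested with edgeR's quasi-likelihood test at a false discovery rate of 0.05 over 18394 genes. At this threshold 3.29% of all genes tested were called, 1.16% as higher and 2.13% as lower.

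Bdnf was at 44.6, 40.2, 38.1 and 32.5 CPM in control mice 1 to 4 and at 39.2, 39.9, 40.4, 36.9 and 33.5 CPM in CUS mice 1 to 5. All CUS mice lay within the control range. The means were 38.8 ± 5.02 (SD, n = 4) and 38.0 ± 2.87 (n = 5), a log2 fold change of -0.03 with a 95% interval of -0.22 to 0.16 (edgeR adjusted p = 0.873). Bulk RNA does not separate fewer cells of a type from less RNA per cell. Ntf3 was at 6.95, 5.80, 3.81 and 4.70 CPM in control and 4.05, 6.00, 4.61, 3.94 and 4.27 CPM in CUS mice. The groups overlapped, and the log2 fold change of -0.22 (95% interval -0.59 to 0.16) had an edgeR adjusted p of 0.501. With 102 to 184 reads per mouse, these data do not tell apart changes of Ntf3 within this interval.

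Ntrk3 was at 940.1, 976, 1093 and 777 CPM in control mice and at 1273, 1335, 1402, 1303 and 1306 CPM in CUS mice. Every CUS mouse lay above every control mouse, and the CUS mice were closer to each other than the controls were. The means were 946 ± 130.2 (SD, n = 4) and 1324 ± 48.8 (n = 5), so that Ntrk3 in CUS mice was at 139.9% of control. The log2 fold change was 0.48 (SE 0.08, 95% interval 0.30 to 0.67) with an edgeR adjusted p of 0.0130. Groups that do not overlap were found for 8.76% of all genes tested, 4.06% with CUS higher. Without any 1 mouse the log2 fold change stayed between 0.41 and 0.55 with adjusted p between 0.00156 and 0.0441, and the call was made by every other tool and scaling tried. Ntrk3 has 20 annotated transcripts, 6 of them protein coding, and the counts do not tell which of these rose.

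Summed marker levels of some cell types moved with the bulk groups, and those of others overlapped. Excitatory neurons gave 75.3% of the Ntrk3 UMIs in the nuclei and held 72.4% of all UMIs. All 5 broad markers of excitatory neurons had higher values in CUS mice (median log2 fold change 0.24), with Neurod6 called as higher. The sums of these markers overlapped, at 725 to 1187 CPM in control and 948 to 1035 CPM in CUS mice. All 5 broad markers of interneurons had lower values (median log2 fold change -0.26), with none called and overlapping sums of 926 to 1099 CPM and 828 to 1039 CPM. The summed level of the 6 Inh_Pv markers was 445 to 486 CPM in control and 498 to 561 CPM in CUS mice, without overlap, although 0 of the 6 passed the test, 4 being higher and 2 lower. The summed level of the 9 Striatal markers was 683 to 1181 CPM in control and 1167 to 1409 CPM in CUS mice, with overlap. Pde10a was called as higher, while 8 of the 9 were lower and the median log2 fold change was -0.88. The 6 markers of Ex_L2/3_Enpp2 neurons summed to 384 to 532 and 464 to 544 CPM, which overlapped, with none called. The summed markers of oligodendrocyte precursors, which also carried Ntrk3, were lower in CUS mice without overlap, at 345 to 423 against 273 to 332 CPM, with Lhfpl3 called. The 6 Ex_L5 markers (433 CPM of Ntrk3) summed to 252 to 314 and 253 to 316 CPM, with overlap. Of these 2 were lower and none was called. The 7 Ex_L6 markers (382 CPM) summed to 1711 to 1987 and 1525 to 2334 CPM, with overlap. Of these 5 were lower, with Garnl3 called as higher. Some types with low Ntrk3 in the nuclei also had markers that moved. The 6 Ex_L4 markers (157 CPM of Ntrk3) summed to 539 to 688 and 415 to 576 CPM, with overlap. Of these 4 were lower, with Brinp3 called as lower. None of the 5 Ex_L5/6 markers (165 CPM) and 1 of the 6 Inh_Sst markers (149.9 CPM) were lower, with none called. Markers of astrocytes (105 CPM) and Oligo_Opalin nuclei (93.9 CPM), given below, were mostly lower. No marker of these lists was at 0 throughout. The part of these cell types in the Ntrk3 result was not tested.

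Ntrk2 was at 848, 974, 1179.95 and 1007 CPM in control mice and at 1215, 1111, 989, 939 and 914 CPM in CUS mice. The groups overlapped almost fully. The means were 1002 ± 137 and 1034 ± 127 CPM, with a log2 fold change of 0.05 (95% interval -0.18 to 0.27, edgeR adjusted p = 0.843). An antisense gene within Ntrk2, 4930415C11Rik (chr13:59054896-59084093, minus strand), gave 59, 47, 35 and 43 reads in control and 21, 21, 27, 21 and 25 reads in CUS mice. All CUS mice lay below all controls, and this gene fell from 1.63 ± 0.41 to 0.81 ± 0.09 CPM (log2 fold change -1.01, edgeR adjusted p = 0.0198). The call was lost without control mouse 2, CUS mouse 4 or CUS mouse 5 (adjusted p up to 0.0658). The bulk libraries were made with a kit that keeps strand, but whether the counting used it is not given in the sources used here. Another antisense gene within Ntrk2, Gm47423, was at 0 reads in 8 of the 9 mice and at 3 in CUS mouse 2, beside 22450 to 34193 reads of Ntrk2 per mouse. The antisense gene in Ntrk3, Gm9885, had at most 56 reads per mouse and a log2 fold change of 0.15 (edgeR adjusted p = 0.746), and Gm45346, which overlaps Bdnf, had 9 to 27 reads (adjusted p = 0.515). The antisense gene 4921513I08Rik in Ntrk3 had at most 1 read.

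Ngfr gave 7, 11, 11 and 8 reads in control and 14, 7, 5, 6 and 8 reads in CUS mice and was not tested. The groups overlapped, with the highest and the lowest mouse both in the CUS group.

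**Figure D3:**
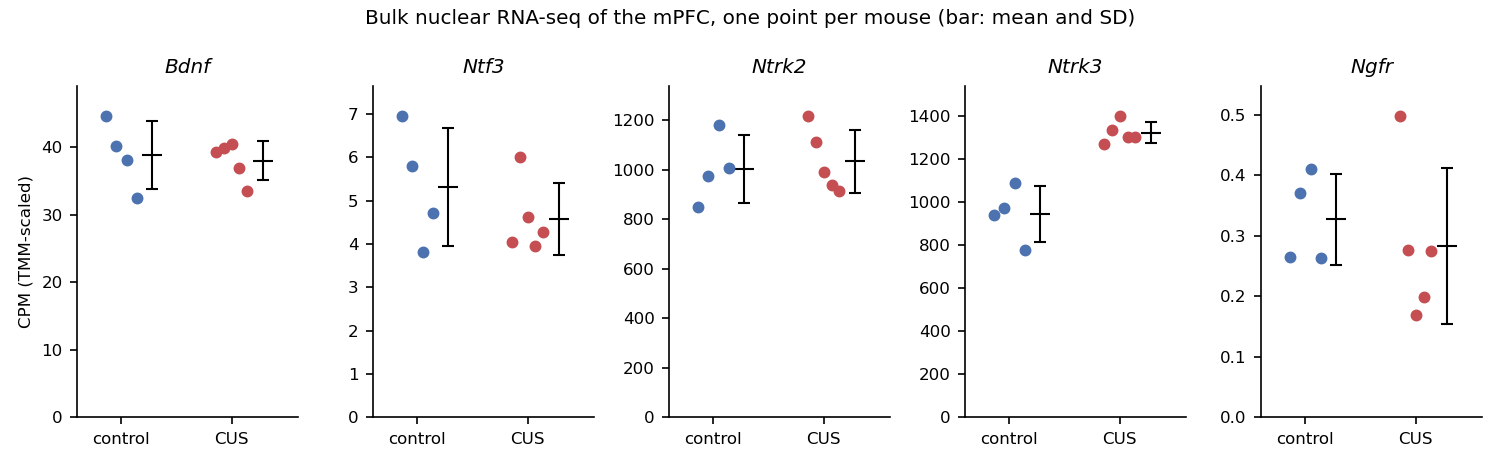
Bulk CPM (y axes, TMM-scaled) of Bdnf, Ntf3, Ntrk2, Ntrk3 and Ngfr in the mPFC, 1 point per mouse for 4 control and 5 CUS mice, with bars for the mean and SD. Only for Ntrk3 do the groups stand apart, at 777 to 1093 CPM in control and 1273 to 1402 CPM in CUS mice.

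The rest of the pathway was read from a list of 70 ligands, receptors, coreceptors, processing enzymes, Trk signalling proteins and p75 adaptors, of which 66 were tested in bulk. Of these, 4 fell, 1 rose (Ntrk3) and 61 did not pass, with a median log2 fold change of -0.03 against 0.01 over all genes. Over all genes tested 2.13% were called as lower and 1.16% as higher, and 48.7% had lower values in CUS mice. Among the 7 genes of processing and release, Pcsk6, a proprotein convertase of the family that cleaves neurotrophin precursors, fell from 21.1 ± 2.05 to 14.9 ± 0.66 CPM (log2 fold change -0.50, edgeR adjusted p = 0.00715). Cadps2, which primes dense-core vesicles for release and is known to promote BDNF secretion, fell from 203 ± 11.8 to 164 ± 5.91 CPM (log2 fold change -0.30, edgeR adjusted p = 0.0148). The Cadps2 call was lost without control mouse 2 or CUS mouse 4 (adjusted p up to 0.0553).

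Of the 39 Trk signalling genes, 24 had lower and 15 higher values, against 48.7% of all genes with lower values, and 2 fell, against 2.13% of all genes. The adaptor Gab1 fell from 52.9 ± 4.34 to 41.8 ± 3.78 CPM (log2 fold change -0.34, edgeR adjusted p = 0.0359), and its call was lost in 6 of the 9 fits that left out 1 mouse (adjusted p up to 0.101, the exceptions being control mice 1 and 3 and CUS mouse 1). Sos1, the exchange factor that activates Ras, fell from 112 ± 7.20 to 93.3 ± 1.25 CPM (log2 fold change -0.27, edgeR adjusted p = 0.0205), and its call was lost without control mouse 2, CUS mouse 4 or CUS mouse 5 (adjusted p up to 0.0791). All 6 coreceptors, among them Lingo1 and the sorting receptors Sort1 and Sorcs2, had higher values in CUS mice (median log2 fold change 0.17), and none passed the test, 3 having an unadjusted p under 0.05, against 19 of the 66 genes of the whole list and 21.5% of all genes tested. None of the 9 p75 adaptors tested was called, nor had one an unadjusted p under 0.05. The ligand gene Ntf5 gave at most 5 reads per mouse and was not tested.

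Markers of astrocytes and oligodendrocytes had mostly lower values in CUS mice, while those of microglia did not. Of the 8 astrocyte markers 7 had lower values in CUS mice, with Aqp4 and Gja1 called as lower, and their sums overlapped (1980.1 to 2475 CPM in control and 1863 to 2177 CPM in CUS mice). All 8 Oligo_Opalin markers had lower values (median log2 fold change -0.51), with none called and overlapping sums. All 6 Oligo_Enpp6 markers had lower values, with Bcas1 called as lower and sums of 213 to 224 CPM in control and 195 to 212 CPM in CUS mice, without overlap. Of the 8 microglia markers 4 had lower values (median log2 fold change 0.01), with none called and overlapping sums of 133 to 144 CPM and 131 to 153 CPM. Their part in the lower values of Pcsk6, Cadps2, Gab1 and Sos1 was not tested.

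In the nuclei, UMIs were summed per mouse and class and tested in the same way at a false discovery rate of 0.2 within each class. No test of Bdnf, Ntrk2 or Ntrk3 passed, whether over all nuclei, all excitatory neurons, all interneurons or any class (71 tests, smallest edgeR adjusted p = 0.5002), and in the classes none had an unadjusted p under 0.05, against 3.12% (cluster Nefm/Nefl) to 11.3% (Ex_L2/3_Enpp2-like nuclei) of all genes tested in a class. At this threshold 0.0199% of the genes tested were called over all nuclei, 0.0376% over excitatory neurons, 0% over interneurons (4.55% at an unadjusted p under 0.05), and at most 0.896% in a class (Ex_L2/3_Enpp2-like nuclei). In the other classes described it was 0.525% in Ex_L4-like nuclei, 0.266% in cluster Galnt14/Sulf1, 0.149% in Astrocyte-like, 0.0511% in Ex_L5/6-like, 0.0344% in Claustrum-like, 0.0202% in Inh_Pv-like and 0% in Striatal-like nuclei. Ntf3 and Ngfr had too few UMIs to be tested in any class. Values in this comparison are CPM of the UMIs of the genes tested, TMM-scaled, and are not on the scale of the levels above.

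Over all nuclei Bdnf was at 84.2, 64.9, 84.0 and 63.0 CPM in control mice and at 92.4, 76.4, 74.4 and 88.3 CPM in CUS mice. The groups overlapped, with 2 of the 4 controls below every CUS mouse. The log2 fold change was 0.16 (95% interval -0.10 to 0.43, edgeR adjusted p = 0.660). Ex_L2/3_Enpp2-like nuclei, which gave the most Bdnf UMIs (1236), were at 157, 83.8, 137 and 100.3 CPM in control and at 173, 123, 145 and 142 CPM in CUS mice. Control mice 2 and 4 were again the lowest, and the log2 fold change of 0.30 (95% interval -0.05 to 0.65) had an edgeR adjusted p of 0.5002. In cluster Galnt14/Sulf1, control mice had 148, 129.7, 182 and 131 and CUS mice 193, 194, 134 and 218 CPM, with overlap (log2 fold change 0.31, edgeR adjusted p = 0.637). In Claustrum-like nuclei, where the level was highest, Bdnf was at 461, 253, 385 and 242 CPM in control and 359, 294, 332 and 358 CPM in CUS mice. Their means were nearly equal, 335 ± 106 and 336 ± 30.4, with a log2 fold change of 0.01 and a 95% interval of -0.41 to 0.43. Over the 12 classes tested, Bdnf had higher values in CUS mice in 9 and lower in 3, with a median log2 fold change of 0.20, from the same 8 mice each time.

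Ntrk2 over all nuclei was at 532, 525, 525 and 531 CPM in control and at 590.5, 596, 596 and 559.9 CPM in CUS mice. Every CUS mouse lay above every control mouse, and the controls lay close together. The means were 528 ± 3.69 and 586 ± 17.4 (SD, n = 4 each), with a log2 fold change of 0.15 (SE 0.08, 95% interval -0.03 to 0.33) that did not pass the test (edgeR adjusted p = 0.603). Groups apart with CUS higher were found for 2.01% of all genes tested over all nuclei. Excitatory neurons gave 509, 508, 500.0 and 482 CPM in control and 555, 574, 570.0 and 522 CPM in CUS mice, again without overlap (log2 fold change 0.15, edgeR adjusted p = 0.557), which held for 2.24% of genes there with CUS higher. Interneurons overlapped, at 712 to 811 and 773 to 825 CPM (log2 fold change 0.03, 95% interval -0.23 to 0.29).

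By class, Ntrk2 groups were apart in Ex_L4-like nuclei, with control mice at 585, 625, 583 and 579.8 and CUS mice at 672, 647, 703 and 703 CPM (log2 fold change 0.20, edgeR adjusted p = 0.552, 1.95% of genes apart with CUS higher). They were also apart in cluster Galnt14/Sulf1, with 505, 489, 522 and 343 against 551, 640.3, 576 and 536 CPM (log2 fold change 0.27, edgeR adjusted p = 0.599, 2.04% of genes). In the other 24 classes the groups overlapped. In Astrocyte-like nuclei Ntrk2 was at 967, 1065, 846 and 1081 CPM in control and 1160.4, 949.9, 1249 and 1300.3 CPM in CUS mice (log2 fold change 0.24, 95% interval -0.09 to 0.58, edgeR adjusted p = 0.898). In all, 21 of 26 classes had higher and 5 lower values in CUS mice, with a median log2 fold change of 0.10. These classes share their mice, so that their count is not a count of independent samples.

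Ntrk3 over all nuclei was at 385, 413, 376 and 443 CPM in control and at 349, 509, 363 and 359 CPM in CUS mice. CUS mouse 2, the library that stood apart, was the highest of the 8, and the other CUS mice were below every control. The log2 fold change was -0.03 (95% interval -0.31 to 0.24, edgeR adjusted p = 0.936), and -0.16 without CUS mouse 2 (edgeR adjusted p = 0.299). The same mouse was the highest in 12 of the 25 classes tested. In Ex_L2/3_Enpp2-like nuclei the log2 fold change was -0.03 (95% interval -0.29 to 0.24), in Inh_Pv-like nuclei -0.19 (-0.51 to 0.14) and in Striatal-like nuclei 0.10 (-0.27 to 0.48), none of them past the test (edgeR adjusted p = 0.959, 0.960 and 0.973). Ntrk3 had higher values in 9 and lower in 16 of the 25 classes, with a median of -0.05.

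Set side by side, the interval of Ntrk3 over all nuclei of the neocortex ends at 0.24, below the lower end of the interval in the bulk mPFC, 0.30. The assays differ in region, age, mice, library method and counting, and the difference between them was not tested. For Bdnf and Ntrk2 the bulk and nuclear intervals overlapped.

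**Figure D4:**
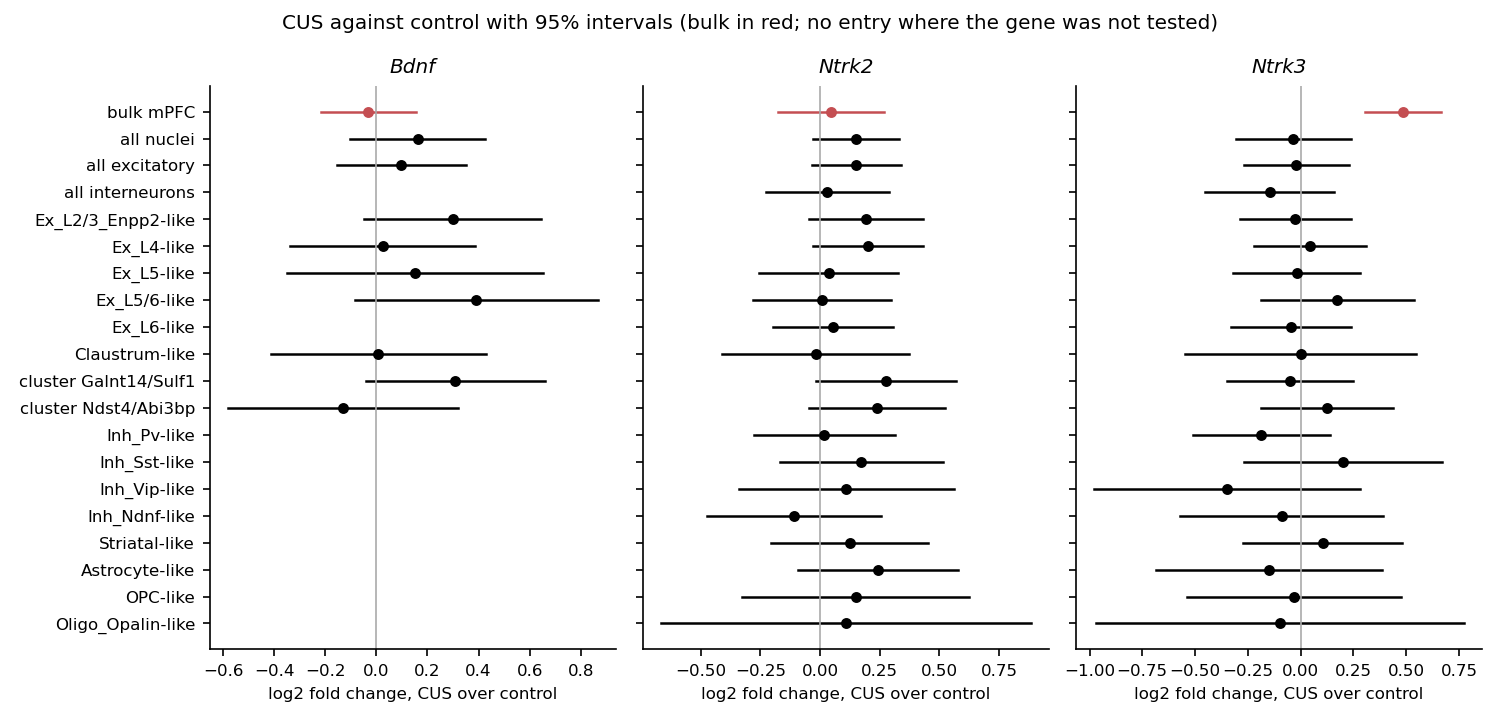
Log2 fold change of CUS over control (x axes) with 95% intervals for Bdnf, Ntrk2 and Ntrk3 in the bulk mPFC (red) and in the neocortical nuclei together and by class (black), with no entry where a gene was not tested. The bulk value of Ntrk3 (0.48) lies apart from 0, while every interval in the nuclei shown includes 0.

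**Figure D5:**
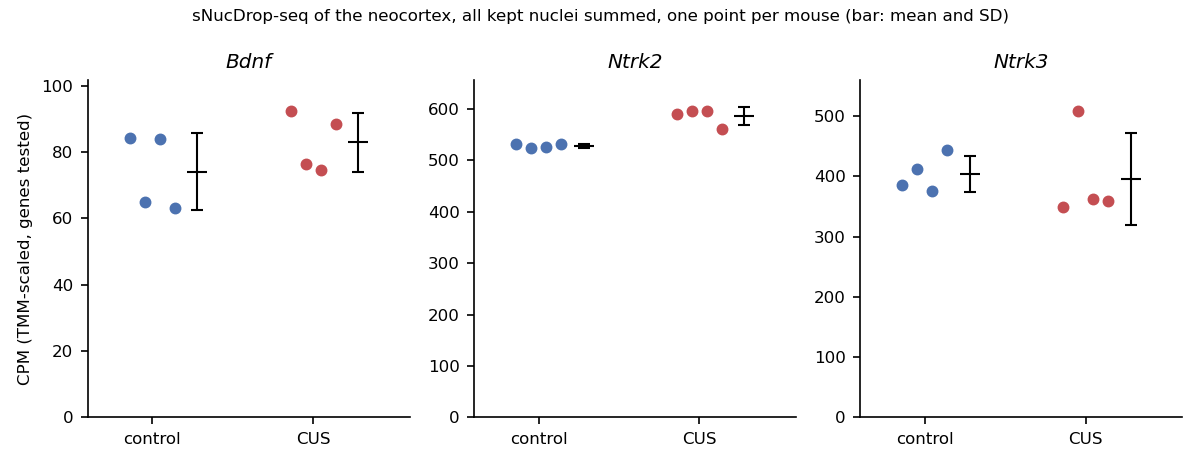
CPM of Bdnf, Ntrk2 and Ntrk3 (y axes, TMM-scaled over the genes tested) in all kept nuclei of the neocortex, 1 point per mouse for 4 control and 4 CUS mice, with bars for the mean and SD. The Ntrk2 groups do not overlap (525 to 532 against 559.9 to 596), and 1 CUS mouse at 509 stands above all others for Ntrk3.

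Whether the CUS effect differed between classes was tested directly over mice, with an exact two-sided permutation test of the difference of log2(CPM + 1) between classes, for which the smallest possible p is 0.0286. The effect on Ntrk2 was larger by 0.12 in excitatory neurons than in interneurons (exact p = 0.0571, adjusted over 4 tests 0.229). For Bdnf the difference of excitatory neurons minus interneurons was -0.36 (exact p = 0.343, adjusted 0.457), with few Bdnf UMIs in interneurons (80). For Ntrk3 it was 0.11 (exact p = 0.343, adjusted 0.457), and for Ntrk2 in Astrocyte-like nuclei minus excitatory neurons 0.08 (exact p = 0.657, adjusted 0.657). After adjustment over 4 tests, 1 difference alone could not have passed 0.05 in this design, so that these tests do not show that the effects were alike.

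Beside the members, 38 genes of the wider list were tested over all nuclei, with a median log2 fold change of 0.03. None passed (smallest edgeR adjusted p = 0.596), and 1, the kinase gene Rps6ka5, named here after its values were seen, had an unadjusted p under 0.05, against 8.01% of all genes tested over all nuclei. In the classes, 21 to 45 genes of the list, members included, were tested in each. Only Arhgdia, a regulator of small GTPases that p75 is known to bind, passed, and in 1 class. Of all genes tested, 0.0511% were called in Ex_L5/6-like nuclei and at most 0.896% in any class. Arhgdia rose in Ex_L5/6-like nuclei, from 22.9, 25.7, 24.5 and 16.3 CPM in control to 52.3, 47.0, 68.3 and 65.0 CPM in CUS mice (log2 fold change 1.32, edgeR adjusted p = 0.131). The values rest on 115 UMIs, and the call was lost with DESeq2 (adjusted p = 0.808), without the filter on low counts (0.276), without the doublet filter (0.231) and in 6 of the 8 fits that left out 1 mouse (up to 0.605, the exceptions being CUS mice 2 and 4). Pcsk6, Cadps2, Gab1 and Sos1, which fell in the bulk mPFC, were called in no class. Over all nuclei Cadps2 had a log2 fold change of -0.16 (edgeR adjusted p = 0.629) and Sos1 of -0.16 (edgeR adjusted p = 0.628), while Pcsk6 and Gab1 had too few UMIs to be tested.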

How the data were processed

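Bulk nuclear RNA-seq files held whole read counts per gene and the sNucDrop-seq tables whole UMI counts per gene and barcode. The authors made these count values from reads mapped to mm10, with STAR named in the processing notes, and deposited them without normalization, the nuclei before any filter and with 5000 barcodes per mouse. Exonic and intronic reads on the gene's strand were counted for nuclei. Bulk libraries were made with a stranded total RNA kit, and whether their counting used strand or introns is not given in the sources used here.

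For bulk, edgeR 4.0.16 in R 4.3.3 was run on the counts (filterByExpr, TMM factors, quasi-likelihood test, Benjamini-Hochberg adjustment, FDR 0.05). A barcode was kept if it had 600 to 5000 genes, less than 5% of UMIs from mitochondria and no doublet score above 0.2, and 4788 (15.2%) were removed as doublets. Nuclei were clustered with Seurat 5.3.0 (2000 variable genes without the members, of which only Bdnf had been among them, 50 principal components, 20 neighbors, resolution 1). Naming a cluster took 3 or more markers of a type, each enriched 1.5-fold and detected in 5% of the nuclei, with 2 or more of them in the top 10 genes. These cut-offs came from earlier work on the same clusters, after the clusters were seen. Class names are therefore rebuilt and may differ from those of the study. UMIs were summed per mouse and class and tested with edgeR on genes whose UMIs exceeded 10% of the nuclei, in classes over 200 nuclei, at FDR 0.2. Levels by class are CPM of the class total. Differences of effects used an exact two-sided permutation test of log2(CPM + 1), with a pseudocount of 1. The count tests were also run on simulated data with known changes, for bulk, all nuclei and Ex_L2/3_Enpp2-like nuclei. The permutation test and the other classes were not simulated. Intervals are at 95% from the fitted degrees of freedom.

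Named genes were the 5 members, the genes of the pathway lists that were called, the remaining ligands and receptors, genes overlapping a member, and the 3 genes with the most similar pattern over classes among 15333 genes with at least 10 CPM in 1 class. Some genes of the lists are not reported here. The members and lists were chosen with earlier results of these data known. Counts of mice of 1 group differed by more than sampling noise for every pair (chi-square per degree of freedom 2.88 to 24.4 in bulk and 2.67 to 13.8 in nuclei), so no library was counted as a duplicate. Alternatives were DESeq2 1.42.0, the likelihood ratio test, other scalings, no filter on low counts, a replicate block, no doublet filter, 1000 genes per nucleus, other clustering resolutions and leaving out each mouse.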

Additional observations from a re-analysis of the deposited data

Results flagged for a closer look

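Of 50 groups of 4 or 5 mice checked for a mouse far from the rest, 5 had one, where chance gives about 1 in 20. Ntrk3 over all nuclei was at 509 CPM in CUS mouse 2 and at 349 to 363 CPM in the other CUS mice, and over excitatory neurons at 501 CPM against 365 to 377 CPM. Ntrk2 over all nuclei was lowest in CUS mouse 4, at 559.9 CPM against 590.5 to 596 CPM in the other CUS mice, which is still above every control. In Ex_L4-like nuclei Ntrk2 was highest among controls in mouse 2, at 625 CPM against 579.8 to 585 CPM. Ngfr over all nuclei had a CPM of 0 in CUS mouse 3 and of 0.42 to 0.45 in the others, a difference of 2 to 4 UMIs.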

How the results depend on the processing

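The Ntrk3 call in bulk and the absence of a member call in the nuclei held under every alternative run (smallest adjusted p over 1364 tests in the nuclei 0.251). No alternative modelled the batches of the nuclei, for which the study reported a strong effect and fitted a term. Of 645 alternative values, 565 were counted as unchanged. For fold changes and differences of effects this meant the same direction and side of the threshold. Counts of calls had to stay close to the main count, and levels within the SD over mice. Where others moved, the cause was not tested. Genes called in bulk went from 606 to 1413 with DESeq2 and 1330 with the likelihood ratio test, and to 133 (without control mouse 2) to 1508 (without control mouse 3) with 1 mouse left out. Without TMM factors 75.3% of the calls were lower, against 64.7%. Over all nuclei 1 gene was called, with DESeq2 22, with the likelihood ratio test 17, without the filter 309 and with 1 mouse left out 0 to 828. Over classes 122 calls became 350 with the likelihood ratio test, 80 with 1000 genes per nucleus, 251 without the filter and 47 to 1409 with 1 mouse left out. Small log2 fold changes crossed 0 when 1 mouse was left out: Bdnf in bulk (-0.099 to 0.037) and in Claustrum-like nuclei (-0.13 to 0.18), Ntrk2 in bulk (-0.030 to 0.13), in interneurons (-0.0058 to 0.058) and in the difference of astrocytes from excitatory neurons (-0.0046 to 0.19), and Ntrk3 over all nuclei (-0.16 to 0.021), excitatory neurons (-0.13 to 0.027) and Ex_L2/3_Enpp2-like nuclei (-0.14 to 0.031). Bdnf in Claustrum-like nuclei was -0.056 without the filter, -0.094 without the doublet filter and -0.0195 with 1000 genes, and Ntrk3 in Ex_L2/3_Enpp2-like nuclei 0.0053 at resolution 0.6 and 0.013 without the doublet filter. The level of Ntf3 in cluster Ndst4/Abi3bp was 17.2 at resolution 0.6 and 19.7 without the doublet filter, and that of Ntrk2 in Inh_Vip-like nuclei 632 at resolution 1.5.

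Replicate numbers were not used to pair mice in the main tests. Deviations of equally numbered mice correlated at 0.03 to 0.23 in bulk, and at -0.45 to 0.40 over all nuclei. Mice of unequal number were not compared in this way, so that these values do not decide whether the numbers pair mice. With the number as a replicate block, which leaves out CUS mouse 5, 233 bulk genes and 338 over classes were called, Bdnf in bulk was 0.019, Ntrk3 0.50 (adjusted p = 0.0228), and Gab1 (-0.29, adjusted p = 0.102), Sos1 (-0.27, 0.0655) and 4930415C11Rik (-1.02, 0.0634) no longer passed.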
